A study of Mus musculus with 2 samples.

Results

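This account covers 9 genes of calcium and NFAT signalling, Itpr3, Atp2a3, Calm2, Calm3, Camk2b, Camk2d, Ppp3ca, Nfatc3 and Rcan1, in single cells sorted from mouse small intestinal organoids. The 9 were taken by name out of 16943 nuclear genes, and all had a row in the table of each plate. Organoids of jejunum and ileum with the genotype Neurog3-RFP hom, in which a red fluorescent reporter marks cells that express Neurog3 or did so recently, were given either the solvent DMSO or the small molecule ISX-9 for 48 h. Ngn3-RFP-positive cells were then sorted into 1 plate of 384 wells per treatment and read by SORT-seq, which uses CEL-Seq2 chemistry to count the 3′ ends of polyadenylated RNA from each well. Every cell of both plates thus carries the reporter and was selected by it, the labels name no separate cultures or animals, and neither group has a replicate. ISX-9 (isoxazole 9) is known as an inducer of neuronal differentiation that acts through calcium entry and CaM kinases in neural stem cells, and the series asks how it alters the fate of endocrine progenitors.

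In this pathway, receptors at the cell surface activate phospholipase C, and the inositol trisphosphate it makes opens receptors on the endoplasmic reticulum that let stored calcium into the cytosol, while SERCA pumps return it to the store. Calcium bound to calmodulin activates the CaM kinases and the phosphatase calcineurin. Calcineurin removes phosphate from NFAT transcription factors, which then enter the nucleus, and among their best known targets is Rcan1, whose product binds calcineurin and restrains it. In the gut epithelium, enteroendocrine cells release serotonin and peptide hormones, and goblet cells release mucin, when cytosolic calcium rises.

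Rcan1 is read from a pair of transcription starts, and the internal start, known to give the short calcineurin-responsive transcript, is the reason for showing both promoters. The lines below give 250 bases before to 50 bases after each start on the minus strand of mouse chromosome 16, from RefSeq on GRCm38.p6, 5′ to 3′, at chr16:92466120-92466419 for the upstream start and chr16:92400029-92400328 for the internal one. Capitals mark each match to GGAAA, the core that NFAT proteins bind, or to its reverse complement TTTCC.
Rcan1 upstream start: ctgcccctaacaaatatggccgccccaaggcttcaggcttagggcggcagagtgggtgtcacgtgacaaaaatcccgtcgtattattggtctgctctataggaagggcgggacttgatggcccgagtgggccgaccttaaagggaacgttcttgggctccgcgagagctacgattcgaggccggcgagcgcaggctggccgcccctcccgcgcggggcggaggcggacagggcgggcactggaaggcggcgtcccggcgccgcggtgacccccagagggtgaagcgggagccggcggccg
Rcan1 internal start: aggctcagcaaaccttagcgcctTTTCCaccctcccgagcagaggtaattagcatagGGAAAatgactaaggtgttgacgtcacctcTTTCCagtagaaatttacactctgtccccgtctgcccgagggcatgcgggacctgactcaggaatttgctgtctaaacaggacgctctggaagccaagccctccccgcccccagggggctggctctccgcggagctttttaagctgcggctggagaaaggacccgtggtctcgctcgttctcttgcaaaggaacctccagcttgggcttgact
The upstream window held 0 matches and the internal window 3. Of 32851 RefSeq promoter windows of the same length, 61.3% held at least 1 match and 9.42% held 3 or more. The core overlaps GGAA, which ETS factors bind, and a match in letters is no evidence of binding. RefSeq windows were found for 7 of the 9 genes (9 windows in all): Camk2d, Calm3 and 1 of the Nfatc3 windows held 1 match each, and the windows of Camk2b, Atp2a3 and Itpr3 and the other Nfatc3 window held 0. Reads at the 3′ end do not tell which start a transcript came from, so the Rcan1 values below belong to the gene as a whole.

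Reads summed to 21398070 with DMSO and to 17062599 with ISX-9. Wells with at least 2000 nuclear reads and 500 genes were kept, 300 with a median of 26340 reads and 290 with a median of 22509.5 reads, and both tables name the same 384 well positions. Levels are given as CPM (a gene's reads summed over the wells named, scaled by the nuclear reads of the same wells), with the 95% Poisson interval of the count. The limit that a count of 0 allows, 3 reads, corresponds to 0.203 CPM over the DMSO plate and 0.254 CPM over the ISX-9 plate. All 5 endocrine markers were read in both plates (14209 and 16902 CPM in sum), and the goblet and Paneth markers summed to 7882 and 11646 CPM in the DMSO plate against 3942 and 2689 CPM in the ISX-9 plate. Immune markers summed to 0.0678 and 0.763 CPM, with Cd3e at 0 in both plates, and mesenchymal markers to 0.881 and 7.03 CPM, with Col3a1 at 0 in both. Of the neuronal and glial markers, 2 of 3 had a row and summed to 24.2 and 45.4 CPM. Enterocyte markers summed to 319 and 521 CPM, stem cell markers to 366 and 197 CPM, and tuft cell markers to 35.7 and 77.7 CPM.

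Wells were put into ranges by 3 genes. A well was called high for Neurog3 (the factor that starts the endocrine lineage), Tph1 (the rate-limiting enzyme of serotonin synthesis in enterochromaffin cells) or Muc2 (the goblet mucin) at 1000 CPM and 3 reads or more. This gave 33 Neurog3-high, 47 Tph1-high and 81 Muc2-high wells in the DMSO plate and 84, 43 and 36 in the ISX-9 plate. A further 14 and 22 wells were high for several of the 3 genes, and 125 and 105 other wells were high for none. These are ranges of wells and not cell types: in the DMSO plate 20 wells lay between 500 and 2000 CPM of Neurog3, 25 of Tph1 and 48 of Muc2, and in the ISX-9 plate 31, 44 and 24. The median well of the Muc2-high range had 0 CPM of Neurod1 in each plate, that of the Neurog3-high range 825 and 720 CPM, and that of the Tph1-high range 798 and 910 CPM. Median depth ran from 15730 (Tph1-high) to 37313 reads (Muc2-high) in the DMSO plate and from 13357.5 (Muc2-high) to 28172.5 reads (Neurog3-high) in the ISX-9 plate. Every one of the 9 genes had wells without a read in every range, so the lowest well is at 0 CPM throughout. Summed levels weight deep wells more, while the mean over wells counts each well alike. That mean, or the level at an equal depth of 2000 reads per well, is given for some but not all of the orders it turns. The steps of Neurog3 level and the division by Neurod1 further below were compared by summed levels only.

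The first comparison sets the ISX-9 plate against the DMSO plate. Rcan1 stood highest over its DMSO level, at 22.0 against 6.10 CPM, and Camk2b, the beta subunit of CaM kinase II that is best known from neurons, came next at 93.3 against 46.0 CPM. Itpr3, Calm2 and Calm3 were between 1.30 and 1.47 times their DMSO level. Ppp3ca, the catalytic subunit of calcineurin, the pump gene Atp2a3 and the kinase gene Camk2d were within 1.11-fold of it, and Nfatc3 was at 0.973 of it. With 1 plate per treatment these are differences between 2 libraries: no test was possible, and the intervals cover counting error only. Reads are amplified copies, so those intervals are narrower than the error of molecules.

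**Figure D1:**
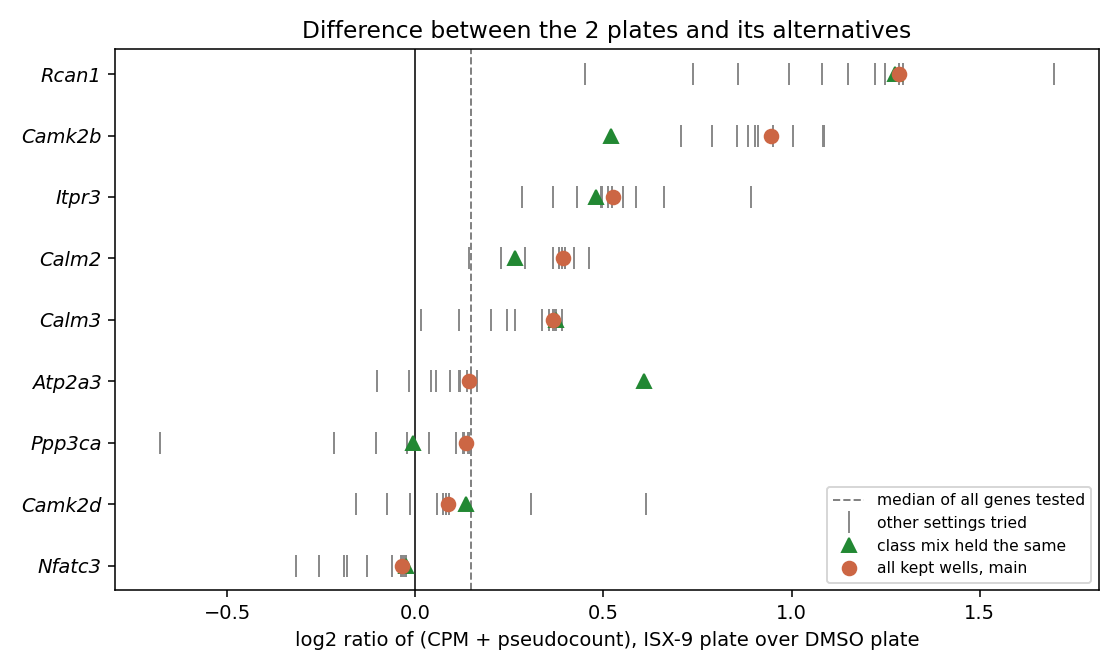
Log2 ratio of (CPM + pseudocount), ISX-9 plate over DMSO plate, for each of the 9 genes (horizontal axis). Filled circles are the main value over all kept wells, grey ticks the other settings tried, triangles the value with the mix of well ranges held the same, and the dashed line the median of all genes tested; Rcan1 spans 0.45 to 1.70 and Nfatc3 stays below 0.

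As ratios of (CPM + 5), a scale that understates the difference of low genes, 8 of the 9 genes were above 0 and 1 below, with a median log2 of 0.37. Of the 9106 genes averaging 10 CPM or more, 6141 were above 0 and 2965 below. Their median was 0.15, a shift that scaling by median of ratios removes. Relative to that shift Rcan1 (log2 ratio 1.28), Camk2b (0.95), Itpr3 (0.52), Calm2 (0.39) and Calm3 (0.37) were higher, while Atp2a3 (0.14), Ppp3ca (0.14), Camk2d (0.09) and Nfatc3 (-0.03) were not. Only Rcan1 was at least 2-fold higher on this scale, 1 of 9 genes against a background of 4.51% of genes tested. None of the 9 was at least 2-fold lower, where the background was 1.19%.

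Release from the store came first in the pathway. Itpr3, on chromosome 17, encodes the type 3 inositol trisphosphate receptor, a channel of secretory epithelia. It was read at 61.3 CPM (57.4 to 65.5) in the DMSO plate and 90.4 CPM (85.1 to 96.0) in the ISX-9 plate, in 41.7% and 53.4% of wells, for a ratio of 1.47 (1.35 to 1.61). At an equal depth of 2000 reads per well it was read in 8.33% and 16.9% of wells, so the plates differed in the same direction at both depths.

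Among the ranges of wells Itpr3 was highest where Tph1 was high. Its level there was 139.6 CPM (123.8 to 156.9) in the DMSO plate and 166.6 CPM (145.5 to 189.8) in the ISX-9 plate, against 46.5 and 82.1 CPM in the other wells. The ratios were 3.0 (2.55 to 3.53) and 2.03 (1.72 to 2.39), or 1.49 and 0.98 on the log2(CPM + 5) scale. Neurog3-high wells stood at 51.5 and 81.5 CPM and Muc2-high wells at 39.8 and 80.3 CPM, whose intervals overlap those of the other wells of the same plate. At equal depth 21.3% and 32.6% of Tph1-high wells had a read, against 7.20% and 14.3% of the other wells. For Muc2-high wells these shares were 6.17% and 25%, and for Neurog3-high wells 3.03% and 11.9%. The level at equal depth in the ISX-9 plate was 314 CPM in Tph1-high, 152.8 CPM in Muc2-high and 123.8 CPM in other wells. The level of 129 CPM in DMSO wells high for several genes rested on 76 reads, of which 1 well held 80.3%.

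The pump gene Atp2a3, on chromosome 11, encodes SERCA3, a calcium ATPase of the endoplasmic reticulum known from epithelial and blood cells. Over whole plates it was almost level, at 104.1 CPM (99.0 to 109.4) with DMSO and 115.4 CPM (109.4 to 121.7) with ISX-9. Its levels were instead set apart by the range of wells, with Muc2-high wells above all the others in each plate: 194.3 CPM (180.6 to 208.8) and 347.3 CPM (315.1 to 382.0). Other wells stood at 89.4 and 100.7 CPM, Tph1-high wells at 48.0 and 104.4 CPM, wells high for several genes at 35.6 and 112.4 CPM, and Neurog3-high wells at 43.5 and 55.7 CPM. In the DMSO plate the intervals of the Neurog3-high and Tph1-high wells overlapped each other. The low place of the Neurog3-high wells did not hold for the mean over wells in the DMSO plate, 143.2 CPM against 111.3 CPM in other wells, or at equal depth, with 136.4 against 124 CPM in the DMSO plate and 101.2 against 95.2 CPM in the ISX-9 plate.

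The median Muc2-high well had 109.1 CPM of Atp2a3 in the DMSO plate and 127.5 CPM in the ISX-9 plate, with the highest wells at 1527 and 6032 CPM, while the median well of every other range was at 0 CPM. Muc2-high wells were thus 2.17-fold (1.95 to 2.42) and 3.45-fold (3.03 to 3.92) above the other wells. At equal depth the shares of wells with a read were 30.9% and 25% in the Muc2-high range and 13.6% and 11.4% among the other wells. Muc2-high wells also carried the Paneth markers, at 30100 CPM in sum in the DMSO plate and 14944 CPM in the ISX-9 plate, and their part in the Atp2a3 level was not tested. Muc2-high wells made up 27% of kept wells with DMSO and 12.4% with ISX-9. Holding the mix of all 5 ranges the same moved the plate difference of Atp2a3 from 0.14 to 0.61 (log2).

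**Figure D2:**
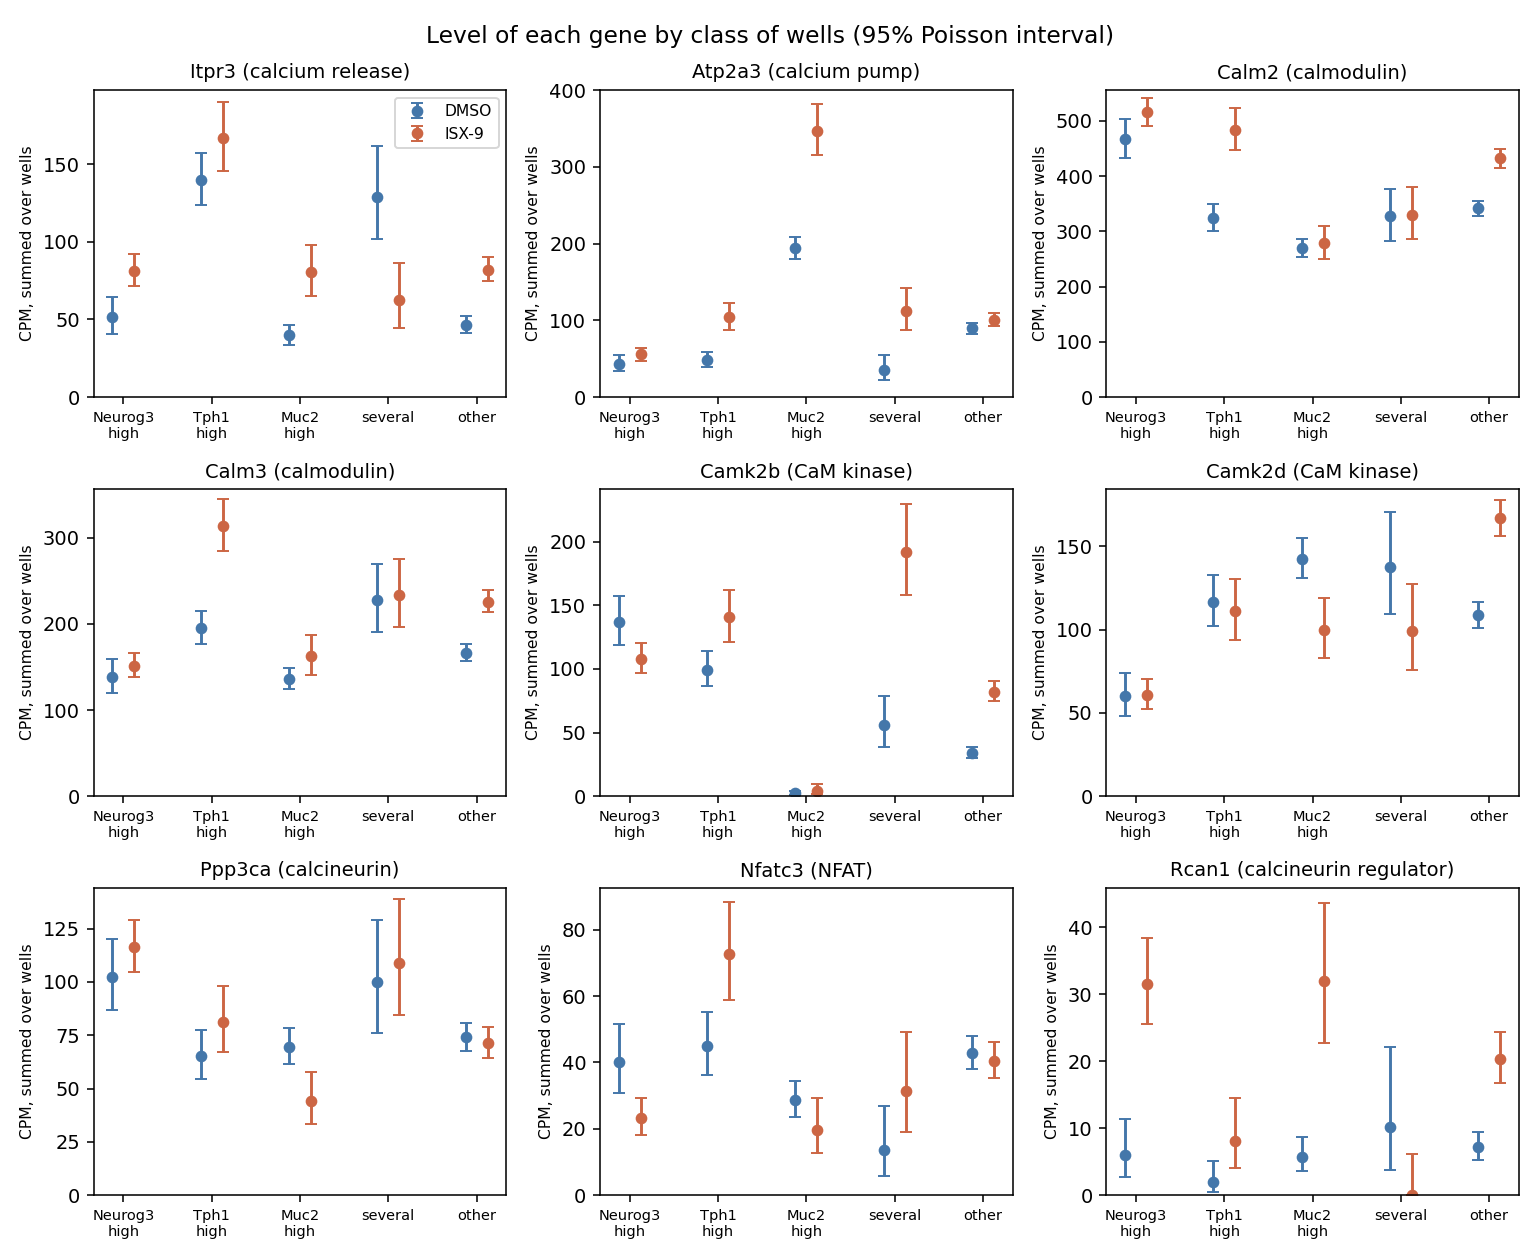
Level of each of the 9 genes (CPM summed over wells, vertical axis starting at 0) by range of wells, for the DMSO plate (blue) and the ISX-9 plate (orange). Bars are 95% Poisson intervals of the counts; Camk2b is near 0 in Muc2-high wells, where Atp2a3 is at its highest, and Itpr3 is high in Tph1-high wells of both plates.

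Calm2 and Calm3 are separate genes, on chromosomes 17 and 7, for the same calmodulin protein. How reads shared among near-identical copies were counted is not stated in the labels, so their split is uncertain. Calm2 stood at 333 CPM (324 to 342) with DMSO and 439 CPM (427 to 451) with ISX-9, a ratio of 1.32 (1.27 to 1.37), and Calm3 at 162.1 CPM (155.7 to 168.7) and 210.3 CPM (202.1 to 218.7), a ratio of 1.30 (1.23 to 1.37). Both genes were higher in the ISX-9 plate by similar amounts, although Calm3 differed by only 0.01 on the log2 scale after thinning to equal depth.

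Across the ranges the calmodulin genes varied less than Camk2b or Atp2a3, and none of the class ratios of Calm2 or Calm3 reached 2-fold. Calm2 was highest in Neurog3-high wells, at 468 CPM (434 to 504) and 516 CPM (491 to 541), and lowest in Muc2-high wells, at 270.0 CPM (253.8 to 287.0) and 279 CPM (250 to 311). At equal depth the DMSO order turned, with 242.4 CPM in Neurog3-high wells, the lowest of the ranges, and 292 CPM in other wells, and in the ISX-9 plate other wells, at 266.7 CPM, stood below the Muc2-high wells, at 305.6 CPM. As a mean over wells, DMSO wells high for several genes had the most Calm2, 419 CPM against 378 CPM in Neurog3-high wells. Summed Calm3 had another order, with 195.0 CPM (176.2 to 215.3) and 314 CPM (285 to 345) in Tph1-high wells against 138.5 and 151.7 CPM in Neurog3-high wells. The DMSO part of that order turned as a mean over wells, 194 against 201.7 CPM, and at equal depth, 223.4 against 242.4 CPM, while the ISX-9 part held at 307 against 199 and 302 against 155 CPM. Wells high for several genes had 227 and 233 CPM of Calm3, and in the DMSO plate that interval (191 to 269) overlapped the Tph1-high one. In the ISX-9 plate, Tph1-high wells exceeded their DMSO counterparts 1.61-fold (1.40 to 1.85) for Calm3 and 1.49-fold (1.34 to 1.66) for Calm2.

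Camk2b, on chromosome 11, was the gene whose level differed most among the ranges. In the DMSO plate it was read at 137.2 CPM (119.1 to 157.3) in Neurog3-high wells, 99.5 CPM (86.2 to 114.2) in Tph1-high wells, 56.0 CPM in wells high for several genes, 34.0 CPM (29.7 to 38.6) in other wells and 2.10 CPM (0.904 to 4.13) in Muc2-high wells. In the ISX-9 plate the same ranges had 108.2 CPM (96.9 to 120.4), 140.6 CPM (121.4 to 162.1), 191.7 CPM (158.4 to 229.9), 82.3 CPM (74.9 to 90.2) and 4.10 CPM (1.33 to 9.56). Endocrine ranges were therefore high and the Muc2-high range was close to 0 in each plate, with 5 of 81 and 3 of 36 Muc2-high wells having any read. The share of wells with a read at equal depth followed: 15.2% and 21.4% of Neurog3-high, 17.0% and 25.6% of Tph1-high, and 2.47% and 5.56% of Muc2-high wells.

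In the DMSO plate Camk2b was 4.04-fold (3.33 to 4.90) higher in Neurog3-high than in other wells, but 1 well held 42.9% of its reads there, and without the top well of each range the levels were 85.2 and 29.1 CPM (log2 ratio 1.40 in place of 1.87). At equal depth the levels were 90.9 and 60 CPM, a log2 ratio of 0.56 and so short of 2-fold, from 6 and 15 reads. The Neurog3-high wells of that plate were then below the Tph1-high wells, at 255.3 CPM, as they were for the mean over wells, 120.1 against 197.9 CPM. The Tph1-high ratio was 2.93 (2.41 to 3.55). With ISX-9 the same ratios were 1.32 (1.14 to 1.52) and 1.71 (1.44 to 2.03), as the other wells were themselves 2.42-fold (2.06 to 2.85) above those of the DMSO plate. Summed reads of Neurog3-high wells were at 0.789 (0.661 to 0.943) of their DMSO level, but the mean over wells was 163.5 against 120.1 CPM and the level at equal depth 190.5 against 90.9 CPM, in the other direction. Muc2-high wells were at 0.0617 (0.0263 to 0.124) and 0.0498 (0.0161 to 0.117) of the level in other wells.

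Over whole plates Camk2b was read in 23% (DMSO) and 47.2% (ISX-9) of wells, and in 7.33% and 19.0% at equal depth, for a ratio of levels of 2.03 (1.84 to 2.23). The plates also differed in the share of Neurog3-high wells, 11% against 29.0%. With the mix of ranges held the same, a calculation added after the data were seen, the log2 ratio of Camk2b was 0.52 in place of 0.95, while that of Rcan1 was 1.27 and that of Itpr3 0.48. A sum over a plate does not tell more cells with a gene from more RNA of it per cell.

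**Figure D3:**
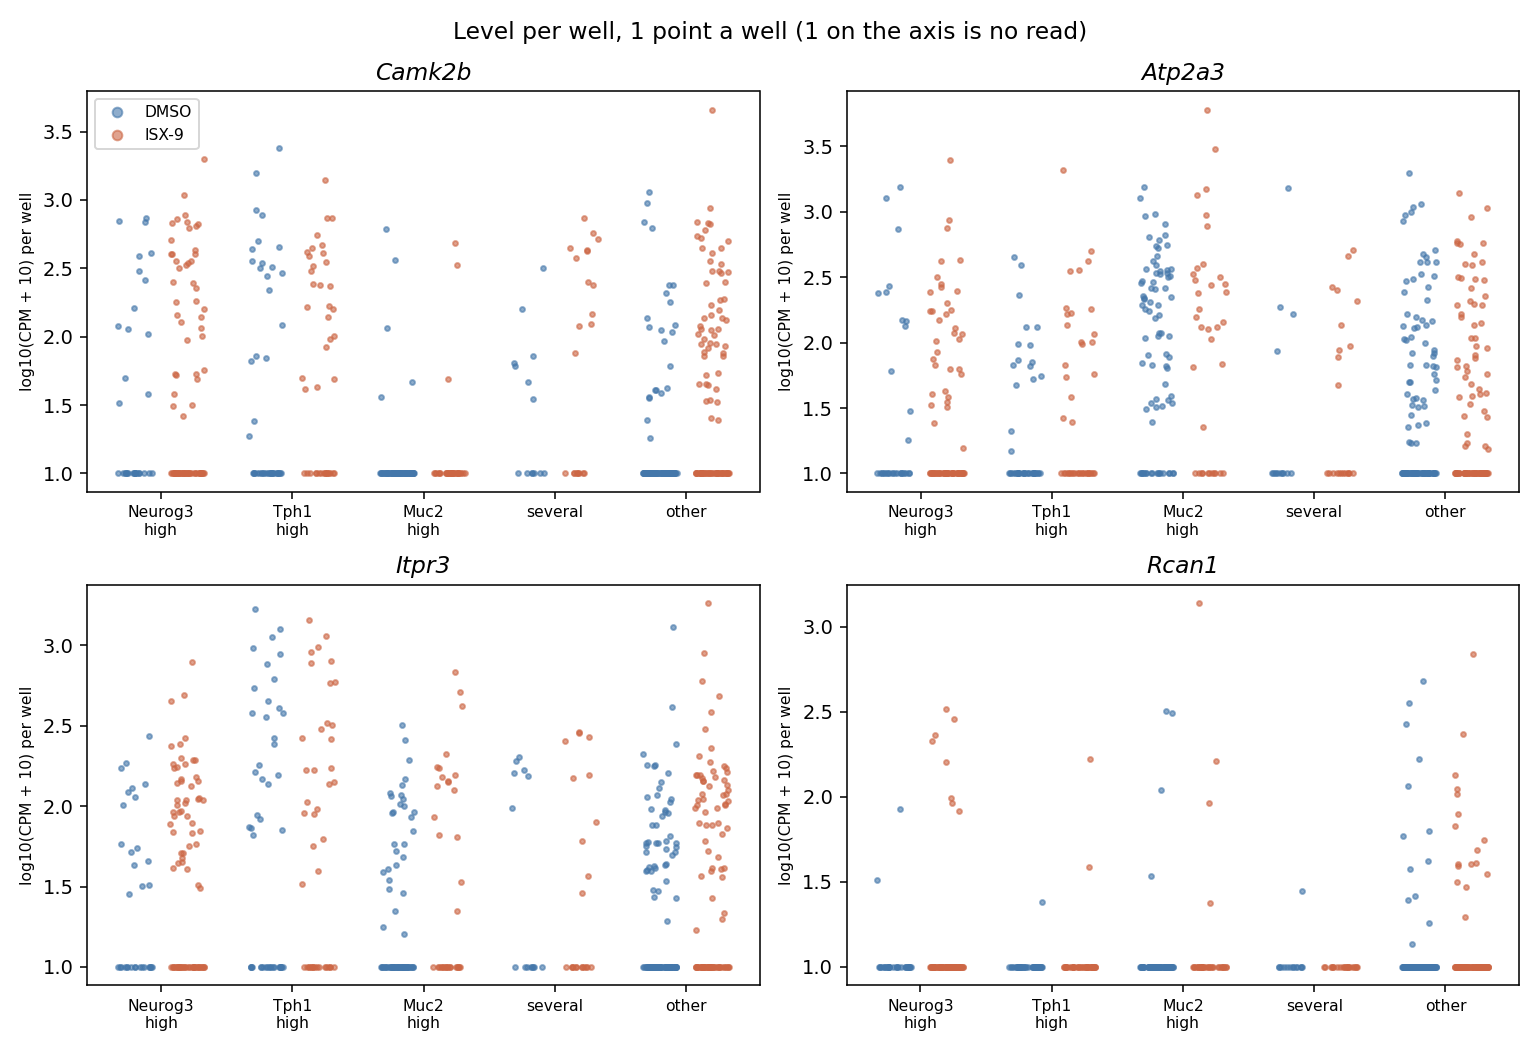
Level per well of Camk2b, Atp2a3, Itpr3 and Rcan1, as log10(CPM + 10), for each range of wells in the DMSO plate (blue) and the ISX-9 plate (orange); each point is 1 well and the value 1 means no read. Rcan1 was read in 21 DMSO wells and 31 ISX-9 wells, and Camk2b in 5 and 3 Muc2-high wells.

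Camk2d, on chromosome 3, encodes the delta subunit of CaM kinase II, which is widely expressed. Its plate levels were 114.8 CPM (109.4 to 120.4) and 122.2 CPM (116.0 to 128.7), a ratio of 1.06 whose interval (0.991 to 1.14) holds 1. Neurog3-high wells had the lowest summed level in each plate, 60.2 CPM (48.4 to 74.0) and 60.9 CPM (52.5 to 70.2), against 108.6 and 166.9 CPM in other wells. At equal depth the DMSO part did not hold: Neurog3-high wells had 60.6 CPM, Tph1-high wells 53.2 CPM and other wells 64 CPM. The ratio of 0.365 (0.310 to 0.427) in the ISX-9 plate was the one class difference of at least 2-fold for this gene. By summed levels Neurog3-high wells were thus above other wells for Camk2b and below them for Camk2d. In the ISX-9 plate the Camk2b part was small as a mean over wells, 163.5 against 152.3 CPM. There 47.6% of Neurog3-high and 52.4% of other wells had a Camk2b read. The opposite order did not extend to every range: Muc2-high wells of the ISX-9 plate were below other wells for both genes.

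Muc2-high wells had 142.7 CPM (131.0 to 155.2) of Camk2d with DMSO and 99.9 CPM (83.0 to 119.3) with ISX-9. They were above the other wells of the DMSO plate and below those of the ISX-9 plate. In Tph1-high wells the levels were 116.8 and 111.0 CPM, and the top well held 38.6% and 34.0% of those reads.

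Ppp3ca, also on chromosome 3, encodes the alpha catalytic subunit of calcineurin. It was read at 75.6 CPM (71.3 to 80.2) and 83.5 CPM (78.4 to 88.9) over the plates, in 57.7% and 58.3% of wells, a ratio of 1.10 (1.01 to 1.20), which is below the shift of all genes. After thinning to equal depth the direction turned, with a read in 15.7% (DMSO) and 11% (ISX-9) of wells and a log2 ratio of -0.68. It turned also as a mean over wells, 110.8 CPM with DMSO and 94.8 CPM with ISX-9 (-0.22). With median-of-ratios scaling the log2 ratio was -0.02, and it was above 0 in 7 of 12 alternatives. Neurog3-high wells had 102.4 CPM (86.8 to 120.0) and 116.6 CPM (104.9 to 129.2), and other wells 74.1 and 71.4 CPM. Neurog3-high wells were thus 1.38-fold (1.15 to 1.66) and 1.63-fold (1.41 to 1.89) higher, short of 2-fold in each plate. As a mean over wells the DMSO levels were 197.6 and 91.9 CPM, past 2-fold. At equal depth the DMSO levels were 242.4 and 88 CPM, also past 2-fold, and the ISX-9 levels 89.3 and 90.5 CPM, on the other side of 1. Summed over Muc2-high wells Ppp3ca was at 69.7 CPM (61.5 to 78.6) and 44.2 CPM (33.2 to 57.7), while the mean over those wells was 66.1 and 62.4 CPM.

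Nfatc3, on chromosome 8, encodes an NFAT transcription factor that calcineurin activates. Its plate levels of 38.0 CPM (34.9 to 41.2) and 36.9 CPM (33.6 to 40.6) had overlapping intervals. Tph1-high wells had 45.0 CPM (36.3 to 55.3) with DMSO and 72.5 CPM (58.9 to 88.4) with ISX-9, a ratio of 1.61 (1.20 to 2.17). Neurog3-high wells went the other way, from 40.2 CPM (30.6 to 51.7) to 23.2 CPM (18.1 to 29.2), a ratio of 0.577 (0.404 to 0.827). The opposite differences held for summed reads only: the mean over Tph1-high wells was 65.1 CPM with DMSO and 45.7 CPM with ISX-9, and the level at equal depth 85.1 and 46.5 CPM, from 8 and 4 reads, both lower with ISX-9 as in the Neurog3-high wells. Muc2-high wells were at 28.5 and 19.7 CPM.

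Rcan1, on chromosome 16, was the rarest to be detected. Its 90 reads in the DMSO plate lay in 21 wells (7.0%) and its 260 reads in the ISX-9 plate in 31 wells (10.7%), and 1 well held 14.4% and 15.4% of them. The ratio of levels was 3.61 (2.83 to 4.64), and without the top well of each plate the levels were 5.27 and 18.9 CPM. As a mean over wells the levels were 8.01 and 16.7 CPM (log2 ratio 0.74), and without the deepest 5% of wells 6.0 and 14.9 CPM (0.86), both short of 2-fold on the log2(CPM + 5) scale. Among wells with a read, the median level was 49.1 CPM with DMSO and 82.0 CPM with ISX-9.

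That difference had the same direction in each of the 4 ranges with Rcan1 reads in both plates, and the opposite one in wells high for several genes. Levels were 6.02 and 31.6 CPM in Neurog3-high wells (2 and 8 wells with a read), 1.98 and 8.14 CPM in Tph1-high wells (1 and 2 wells), 5.76 and 31.9 CPM in Muc2-high wells (4 and 4 wells) and 7.17 and 20.3 CPM in other wells (13 and 17 wells). The ratios were 5.24 (2.65 to 11.8), 4.11 (1.22 to 17.7), 5.55 (3.21 to 9.82) and 2.83 (2.01 to 4.04). In the Muc2-high, Tph1-high and Neurog3-high ranges of the ISX-9 plate, 56.4%, 90.9% and 40.8% of the reads came from 1 well. In the same ranges of the DMSO plate the shares were 59.1%, 100% and 55.6%, and in other wells they were lower, 14.3% with DMSO and 20.5% with ISX-9. Without the top well the Tph1-high levels were 0 and 0.777 CPM, so the agreement among ranges rests on few wells. In wells high for several genes there were 6 reads from 1 well with DMSO (10.2 CPM) and 0 reads with ISX-9, where 3 reads would be 4.96 CPM. The interval of that ratio was 0 to 0.827. At equal depth only 6 DMSO and 5 ISX-9 wells had a read, a level too near that of single reads to compare.

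Counts of genes past 2-fold between ranges were small. Against other wells of the DMSO plate, 1 of the 8 genes with at least 10 CPM was higher in Neurog3-high wells (Camk2b, background 8.51%), 2 in Tph1-high wells (Itpr3 and Camk2b, background 8.31%) and 1 in Muc2-high wells (Atp2a3, background 3.1%). At least 2-fold lower were 0 in Neurog3-high wells (background 6.28%), 0 in Tph1-high wells (6.5%) and 1 in Muc2-high wells (Camk2b, 7.4%). Rcan1 was below 10 CPM in each of these DMSO comparisons and is not among the 8. In the ISX-9 plate, of 9 genes, 0 were higher in Neurog3-high wells (background 7.44%), 0 in Tph1-high wells (10.3%) and 1 in Muc2-high wells (Atp2a3, 5.16%). At least 2-fold lower were 1 in Neurog3-high wells (Camk2d, 8.5%), 0 in Tph1-high wells (11.2%) and 1 in Muc2-high wells (Camk2b, 13.9%). The shares among so few genes are not set apart from these backgrounds. What recurred in both plates was the position of Camk2b and Atp2a3 at opposite ends of the Muc2-high comparison.

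The level of Neurog3 itself was used to order the wells, without the other cuts. In the ISX-9 plate Camk2d was at 165 CPM in 79 wells with no Neurog3 read, 140.6 CPM in 106 wells below 1000 CPM of Neurog3, 93.9 CPM in 66 wells from 1000 to 10000 CPM and 19.0 CPM (12.3 to 28.0) in 39 wells at 10000 CPM or more. Ppp3ca ran from 88.7 and 61.5 to 95.6 and 151.9 CPM over the same steps, and Calm2 from 458 and 404 to 427 and 585 CPM. In that plate summed Camk2d was thus lower at each step up in Neurog3, while Ppp3ca and Calm2 were highest in the top step. The Camk2d intervals with no Neurog3 read (148.7 to 183.0 CPM) and below 1000 CPM (131.2 to 150.5 CPM) overlapped. The share of wells with a Camk2d read was 44.3%, 58.5%, 30.3% and 12.8% over the steps, and so not lower at each. Over the same steps of the DMSO plate Camk2d was at 113.2, 125.3, 85.2 and 56.7 CPM, and so not lower at each step. Calm2 was there at 305.9, 325.9, 417.9 and 510.6 CPM, higher at each step, and Ppp3ca at 73.5, 69.8, 95.4 and 152.7 CPM. In the DMSO plate the 11 wells at 10000 CPM or more had 0 reads of Camk2b, where 3 reads would be 13.1 CPM, against 172.4 CPM (150.7 to 196.3) in the 39 such wells of the ISX-9 plate. The top step of Camk2d in the DMSO plate rested on 13 reads from 2 wells (56.7 CPM).

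Within single wells the 9 genes were sparse. The median well had reads of 4 of them with DMSO and of 4.5 with ISX-9, and of 1 and 2 after thinning to equal depth. All 9 were read in 2 DMSO wells and 8 ISX-9 wells, and none in 16 wells of each plate.

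The genes most like each of the 9 were found by the Pearson correlation of log2(CPM + 5) over 10 points, the 5 ranges in each plate, among 9106 genes. The points of a plate share a library and the ranges share the genes that cut them, so the values only describe likeness. Camk2b was most like Ids (r = 0.978), Neurod1 (0.978) and Vwa5b2 (0.976), and 65 genes reached 0.9. Atp2a3 was most like Rap1gap (0.976), Gcnt3 (0.964) and Rasa4 (0.954), with 24 genes at 0.9 or more. Ppp3ca had 20 such genes, led by Zfp213 (0.960), Fgd6 (0.953) and Mrps18c (0.949). Camk2b had both the widest spread of levels and the most such genes among the 9, and a link between these was not tested.

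For the rest few genes or none reached that value. Calm2 had 11, led by Rtn4 (0.962), Ttc3 (0.954) and Fam109a (0.939), and Calm3 had 6, led by Cds2, Fxyd5 (both 0.919) and Mgarp (0.917). Nfatc3 had 3, which were Ndufs8 (0.921), Ralgapb (0.910) and Itsn1 (0.901). Itpr3 had 1, Smpd1 (0.931), followed by Bcam (0.899) and 2610044O15Rik8 (0.896). Rcan1 had 1, Ube3b (0.912), followed by Psma7 (0.893) and Exosc4 (0.886), and Camk2d had 0, with Ifi30 (0.885), Ddah1 (0.867) and Kcnn4 (0.851) nearest. No 2 of the 9 genes shared a nearest gene.

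A wider list of 67 genes of the pathway, which includes the 9, had 64 genes with a row, and 46 of these had at least 10 CPM. Between the plates 34 of the 46 were higher with ISX-9 and 12 lower, with a median log2 ratio of 0.24, beside 6141 of the 9106 genes tested above 0 and their median of 0.15. Beside the background of 4.51%, 3 were at least 2-fold higher: Rcan1, Atp2b4, a plasma membrane calcium pump, at 48.2 against 17.2 CPM (log2 ratio 1.26), and Plcg2, a phospholipase C, at 52.1 against 19.2 CPM (1.24). Beside the background of 1.19%, 1 was at least 2-fold lower: Plcb1, another phospholipase C, at 11.9 against 43.7 CPM (-1.52). A single ISX-9 well gave 45.4% of its reads there. With DMSO and ISX-9, Plcb1 was at 64.9 and 63.1 CPM in Muc2-high wells and 42.2 and 4.53 CPM in other wells. Atp2b4 was at 8.03 and 82.8 CPM in Neurog3-high wells and 72.3 and 65.1 CPM in Tph1-high wells. For Plcg2 the top well of each plate gave 24.3% and 26.5%. Among the ranges Plcg2 was highest in other wells, at 33.8 CPM with DMSO and 86.4 CPM with ISX-9. Tuft cell markers were also highest there, at 74.8 and 163.4 CPM in sum, and their part in the Plcg2 level was not tested.

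By role, the 8 CaM kinase genes tested, their inhibitors included, were all above 0, as were 6141 of the 9106 genes tested. The median of the 8 was 0.55, but Camk2n1 (0.01), Camk1d (0.05) and Camk2d (0.09) lay below the median of all genes tested. Camk2d was above 0 in 8 of 12 alternatives, down to -0.16 with ERCC scaling. The other named members of that group were Camkk2, the kinase that activates CaM kinases, at 78.4 against 36.7 CPM (1.00), Camk2n2, an inhibitor of CaM kinase II, at 50.2 against 28.8 CPM (0.71), and Camk2g at 34.6 against 19.7 CPM (0.68). The 4 NFAT genes tested had a median of -0.23, with 1 above 0 and 3 below, beside 2965 of the 9106 genes tested below 0. Of the 3, Nfatc3 was close to 0 (-0.03). Medians were 0.27 for the 8 store release genes, 0.07 for the 4 store entry genes, 0.32 for the 10 pumps and uptake genes, 0.38 for the 2 calmodulin genes among the 9, 0.20 for the 6 calcineurin genes and 0.17 for the 4 NFAT kinases. Ppp3r1, the regulatory subunit of calcineurin, was at 90.4 against 56.5 CPM (0.63), and Atp2c1, a Golgi calcium pump, at 74.7 against 52.0 CPM (0.48).

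**Figure D4:**
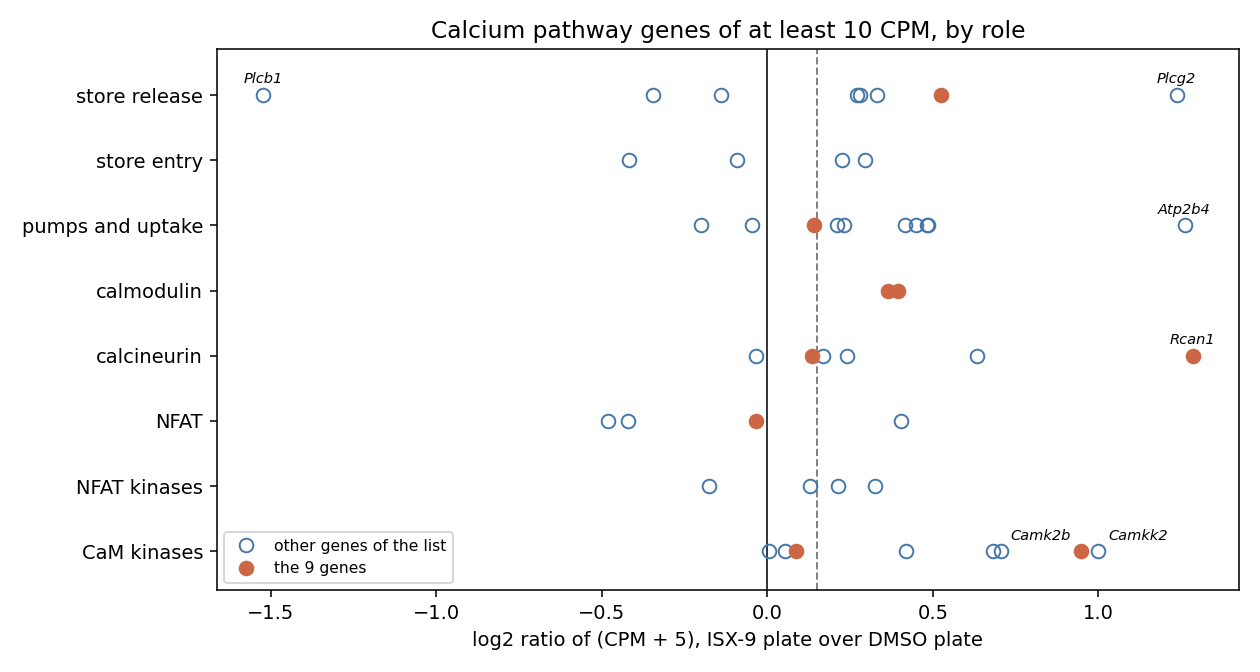
Log2 ratio of (CPM + 5), ISX-9 plate over DMSO plate, for the 46 pathway genes of at least 10 CPM, by role. Filled points are the 9 genes, open points the others, and the dashed line the median of all genes tested (0.15); all CaM kinase genes lie above 0, 3 of them left of the dashed line (Camk2d was above 0 in 8 of 12 alternatives), and 3 of 4 NFAT genes below it.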

How the data were processed

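Each plate is 1 sample. The authors deposited raw counts of reads per gene and well; per the labels the primers carry a molecular barcode of 4 bases (256 combinations), and the largest values, 61032 and 30676, exceed it, so counts are reads and not molecules. Per the submitters' processing notes, BWA (no version) and hg19 were used, while gene rows carry mouse symbols; the build is open, so chromosomes of genes are given without coordinates, and promoters are RefSeq's. Genes absent from 1 table were set to 0. ERCC and mitochondrial rows (26.0% and 24.7% of reads) were left out of totals; Rn45s (12.6% and 6.10%) stayed in. Doublets were not called. Shares of wells have exact Clopper-Pearson 95% intervals. Thinning drew 2000 reads per well and left out no kept well. Python 3.11.15, numpy 2.4.6, pandas 2.3.3, scipy 1.17.1 and matplotlib 3.10.9 were used. The summed log2 ratio between plates was tested on simulated plate totals with known folds, drawn as Poisson counts. That test covered no wells, ranges, thinning or amplification error.

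The 9 genes, the pathway list and the rules were chosen with earlier results of these data known. Named beyond the 9 are the genes that cut the ranges, markers, the 8 other pathway genes of at least 10 CPM with the largest absolute log2 ratio, CaM kinase genes below the median of all genes (chosen after their values were seen), and for each gene the 3 with the highest correlation. Of the pathway list, 1 gene is not reported here. Alternatives covered scaling, depth, pseudocount, well filters, the cut of the ranges and left-out wells.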

Additional observations from a re-analysis of the deposited data

Results flagged for a closer look

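Camk2d stood on opposite sides of the other wells in the Muc2-high wells of the 2 plates: the ratio was 1.314 (1.17 to 1.47) in the DMSO plate and 0.5989 (0.492 to 0.724) in the ISX-9 plate. This was 1 of 27 pairs of ratios looked at, and the difference between the plates was not tested. Each of the 11 alternatives kept the sign in each plate, down to -0.09 (log2) at a cut of 300 CPM in the ISX-9 plate. The median depth of Muc2-high wells was 37313 reads with DMSO and 13357.5 with ISX-9, and Lyz1, a Paneth marker, had a median of 1086 and 138 CPM in them; the part of either was not tested.

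Wells left out for low depth, 84 of the DMSO plate and 94 of the ISX-9 plate, still held 96 and 84 reads of the 9 genes, among 159699 and 110974 nuclear reads.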

How the results depend on the processing

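The number of the 9 genes at least 2-fold higher in the ISX-9 plate, 1 in the main calculation, was 0 after thinning to 2000 reads, 2 with a pseudocount of 1, 0 with a pseudocount of 10 and 2 without the top well of each gene; as a mean over wells and without the deepest 5% of wells it was 1, then Camk2b (1.09 in each) and not Rcan1. Their median log2 ratio, 0.366, was 0.202 with median-of-ratios scaling, 0.117 with ERCC scaling, 0.265 without Rn45s and 0.452 after thinning. Against other wells, the number higher in DMSO Neurog3-high wells (1) was 2 as a mean over wells (Camk2b and Ppp3ca) and 2 after thinning (Ppp3ca, 1.41, and Nfatc3, 1.39, without Camk2b). In DMSO Tph1-high wells (2) it was 1 at a cut of 300 CPM and 3, with Nfatc3, as a mean over wells and after thinning, and in DMSO Muc2-high wells (1) it was 0 at a cut of 300 CPM, 0 as a mean over wells and 0 without the deepest 5% of wells. In ISX-9 Tph1-high wells (0) it was 1 at cuts of 300 and 3000 CPM, as a mean over wells, with a pseudocount of 1 and without the deepest 5% of wells, and 2 after thinning; in ISX-9 Muc2-high wells (1) it was 2 as a mean over wells and 3 after thinning. Of 108 alternative values between plates 97 kept their sign, and of 594 between ranges 535 did; no value of at least 2-fold changed sign. The cause of these moves was not tested. Atp2a3, Camk2d and Ppp3ca turned below 0 with ERCC scaling (-0.10, -0.16 and -0.10), whereas Nfatc3 was below 0 in all 12 alternatives and Itpr3, Calm2, Camk2b and Rcan1 were above the median of all genes in all 12. No paired analysis was possible because each treatment has 1 plate and the labels carry no replicate numbers.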

Other observations

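The other wells, high for none of the 3 genes that cut the ranges, were divided at 100 CPM of Neurod1, a factor of the endocrine lineage, after the data were seen. Wells at or above it (39 with DMSO, 42 with ISX-9) had 94.9 and 149.2 CPM of Camk2b, and those below it (86 and 63 wells) had 8.70 and 39.1 CPM. For Atp2a3 the order was the opposite, with 30.0 and 53.6 CPM at or above the level and 114.1 and 131.2 CPM below it. Camk2d had 88.9 and 107.1 CPM against 116.8 and 205.4 CPM. Rcan1 had 3.50 CPM (1.41 to 7.20) and 23.6 CPM (17.5 to 31.0) against 8.70 CPM (6.27 to 11.8) and 18.2 CPM (13.9 to 23.4). Its order differed between the plates, but the intervals overlapped within each plate. The DMSO level of 3.50 CPM came from 7 reads in 2 wells.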
